A study of Homo sapiens with 4 samples.

Results

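The genes described here encode the chaperones of the cytosol and the mitochondria and the proteins that work with them. They were listed by symbol, with no threshold on a measured value but with earlier results of these data known, and all 46 of them were found among the 23605 gene symbols of the tables. They fall into 11 HSP70 genes, 3 HSP90 genes, 7 HSP40 genes, 10 chaperonin genes, 2 small heat shock protein genes, 11 co-chaperone genes, and a last pair made of the transcription factor HSF1 and the collagen chaperone SERPINH1. SERPINH1 and HSPA13 encode proteins of the secretory compartment, although they are listed with the others.

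The RNA came from LCC9 cells, a breast cancer line derived from MCF-7 that resists tamoxifen and, per the labels, carries wild-type estrogen receptor alpha. For 2 libraries the cells had received A7, a compound that is called a BRCA1 mimetic and is known here by its code name only, for 24 h, and for 2 others vehicle (DMSO) for 24 h. All 4 had been grown in medium free of phenol red with 5% charcoal-stripped serum, and no added estrogen is named for either group. The dose of A7 is not stated in the labels. Nor do they state that replicates were cultured separately, and the p-values therefore reflect a spread between libraries that may be technical.

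HSP70 proteins bind short hydrophobic stretches of unfolded chains in a cycle driven by ATP. HSP40 proteins, which carry a J domain, bring clients to HSP70 and start its ATP hydrolysis, and exchange factors such as the BAG proteins and HSPH1 end the cycle. HSP90 takes over late folding steps of many kinases and of steroid receptors, the estrogen receptor among them, helped by co-chaperones such as CDC37, FKBP4, PTGES3 and AHSA1. Chaperonins are barrels that enclose a client, HSPD1 with its lid HSPE1 in mitochondria and the TRiC/CCT complex of 8 different subunits in the cytosol. When unfolded protein accumulates, HSF1 binds repeats of GAA in alternating orientation, the heat shock element, and raises HSPA1A, HSPA1B, HSPA6, DNAJB1, HSPH1, HSPB1 and BAG3.

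The stretches upstream of 7 gene starts are shown because they carry the letters through which HSF1 acts, or lack them, in genes that the results below turn on. The sequences are from RefSeq (GRCh38.p14), not from these libraries, and the submitters' processing notes name another build (GRCh37), so the coordinates hold for these sequences alone. Each is the 250 bases before an annotated start, 5′ to 3′ on the strand of the gene. Capitals mark the GAA and TTC of every match to GAANNTTC or TTCNNGAA, 2 palindromes that overlap where 3 units follow each other.
HSPA8 (chr11:123062137-123062386, minus strand): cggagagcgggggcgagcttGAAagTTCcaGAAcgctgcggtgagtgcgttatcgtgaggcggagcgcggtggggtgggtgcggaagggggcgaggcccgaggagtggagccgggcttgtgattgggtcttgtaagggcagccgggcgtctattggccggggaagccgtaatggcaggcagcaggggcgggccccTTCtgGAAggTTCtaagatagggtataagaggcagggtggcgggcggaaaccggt
HSP90AA1 (chr14:102087045-102087294, minus strand): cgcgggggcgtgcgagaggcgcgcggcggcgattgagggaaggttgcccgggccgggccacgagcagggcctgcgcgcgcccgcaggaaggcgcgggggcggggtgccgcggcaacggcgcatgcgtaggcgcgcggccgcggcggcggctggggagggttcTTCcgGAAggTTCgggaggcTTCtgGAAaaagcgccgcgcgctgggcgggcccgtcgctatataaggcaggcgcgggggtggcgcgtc
HSPA1A (chr6:31815293-31815542, plus strand): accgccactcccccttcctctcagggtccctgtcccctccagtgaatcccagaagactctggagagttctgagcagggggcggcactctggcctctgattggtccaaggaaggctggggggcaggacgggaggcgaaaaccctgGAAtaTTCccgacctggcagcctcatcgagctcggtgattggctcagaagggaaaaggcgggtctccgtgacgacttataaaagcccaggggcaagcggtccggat
HSPA1B (chr6:31827488-31827737, plus strand): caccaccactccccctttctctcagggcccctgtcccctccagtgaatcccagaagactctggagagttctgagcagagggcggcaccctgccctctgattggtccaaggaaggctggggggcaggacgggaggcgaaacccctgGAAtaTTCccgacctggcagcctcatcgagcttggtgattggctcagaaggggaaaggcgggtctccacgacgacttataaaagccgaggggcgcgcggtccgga
DNAJB1 (chr19:14518398-14518647, minus strand): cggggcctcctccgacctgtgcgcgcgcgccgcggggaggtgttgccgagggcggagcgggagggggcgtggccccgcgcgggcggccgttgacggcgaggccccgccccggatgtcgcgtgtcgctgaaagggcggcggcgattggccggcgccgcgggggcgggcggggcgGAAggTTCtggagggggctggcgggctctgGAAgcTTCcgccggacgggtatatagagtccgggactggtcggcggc
BAG3 (chr10:119651130-119651379, plus strand): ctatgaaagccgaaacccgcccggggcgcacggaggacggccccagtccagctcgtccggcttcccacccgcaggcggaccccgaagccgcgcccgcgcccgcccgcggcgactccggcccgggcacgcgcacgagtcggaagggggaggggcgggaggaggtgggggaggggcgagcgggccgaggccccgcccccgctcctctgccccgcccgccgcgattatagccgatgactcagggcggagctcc
HSPE1 (chr2:197500129-197500378, plus strand): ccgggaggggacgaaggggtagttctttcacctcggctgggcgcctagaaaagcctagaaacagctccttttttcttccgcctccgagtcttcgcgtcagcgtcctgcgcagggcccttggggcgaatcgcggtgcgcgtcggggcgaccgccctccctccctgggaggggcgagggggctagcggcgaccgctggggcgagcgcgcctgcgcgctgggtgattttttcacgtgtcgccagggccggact

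Of the 46 genes 40 had at least 1 promoter window in the table, running from 250 bases before a start to 50 after it, with 56 windows in all. GAANNTTC or TTCNNGAA stood in a window of 21 of the 40 genes, which is 52.5%, whereas 16.2% of all 27305 genes had one. The longer 3-unit forms, GAANNTTC followed by NNGAA and TTCNNGAA followed by NNTTC, which are each other's reverse complement, stood in 9 of the 40 genes (22.5%) and in 0.608% of all genes. HSPA8 had a 3-unit run near either end of its stretch, with matches beginning between 230 and 50 bases before the start. HSP90AA1 had a 3-unit run and a further match in the second of its 2 windows, between 88 and 68 bases before the start. DNAJB1 had 2 matches, 77 and 47 bases before the start, in the second of its 3 windows and none in the other two, and BAG3 had none in its only window. HSPA1A and HSPA1B had 1 match each, 106 and 105 bases before the start, and their upstream stretches were identical at 235 of 251 aligned positions. HSPE1 and HSPD1 are transcribed away from each other from starts 105 bases apart, and the stretch shown holds no match, although another HSPD1 window holds 3. A match is a description of letters, and its absence from a window says nothing about HSF1 at the gene.

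Values are given as scaled FPKM, fragments relative to transcript length and to the mapped fragments of the library, divided by 1 factor per library between 0.990 and 1.02. Depth was low, roughly 4200000 and 3100000 fragments in the A7 libraries and 2200000 in each vehicle library, as estimated from the smallest steps between values. Summed FPKM were 1189056 and 1192830 in the A7 libraries, against 1324082 and 1473540 in the vehicle libraries. All 8 luminal epithelial markers were present in every library. Means were higher with A7 for 4 of them (CDH1, ESR1, GATA3 and FOXA1) and lower for 4 (KRT8, KRT18, KRT19 and EPCAM). ESR1 stood at 5.36 and 5.20 with A7 and at 4.28 and 4.79 with vehicle. KRT18 stood at 240 and 172 with A7 and at 315 and 236 with vehicle. Of 5 fibroblast markers PDGFRB was listed at 0 throughout, and the list summed to 10.9 and 0.963 in the A7 libraries and to 0.416 and 0.421 in the vehicle libraries; DCN made up 8.40 of the sum in A7 replicate 1 and was listed at 0 in the vehicle libraries. Of the blood and endothelial markers PTPRC, CD3E and CDH5 were listed at 0 in all 4 libraries. LYZ stood at 1.38 and 0.405 with A7 and at 1.12 and 0.571 with vehicle, PECAM1 at 0 and 0.067 with A7 and at 0.095 and 0.096 with vehicle, and VWF at 0.029 in A7 replicate 1 and at 0 elsewhere. The part of depth, of the summed FPKM and of the fibroblast markers in the differences below was not tested. In RNA from whole cultures, fewer cells that express a gene and less of its RNA per cell cannot be told apart.

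The chaperone genes were expressed at widely different levels, and most of their RNA came from a few constitutive members. HSP90AB1, the constitutive cytosolic HSP90, averaged 2047 ± 393 scaled FPKM with A7 and 2629 ± 381 with vehicle (SD, n = 2 each, here and below). HSPA8, the constitutive HSP70, averaged 1094 ± 267 and 1793 ± 259 in A7 and vehicle libraries, and HSPE1, the mitochondrial co-chaperonin, 945 ± 24 and 1213 ± 165. These 3 genes made up 60.9% and 64.2% of the summed FPKM of the 46 genes with A7 and 64.7% and 67.1% with vehicle. The 46 genes together took 0.497% and 0.604% of all summed FPKM in the A7 libraries and 0.593% and 0.637% in the vehicle libraries, with 1 A7 library inside the range of the vehicle libraries. At the other end HSPA6, a strictly heat-induced HSP70, was listed at 0 in all 4 libraries.

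**Figure D1:**
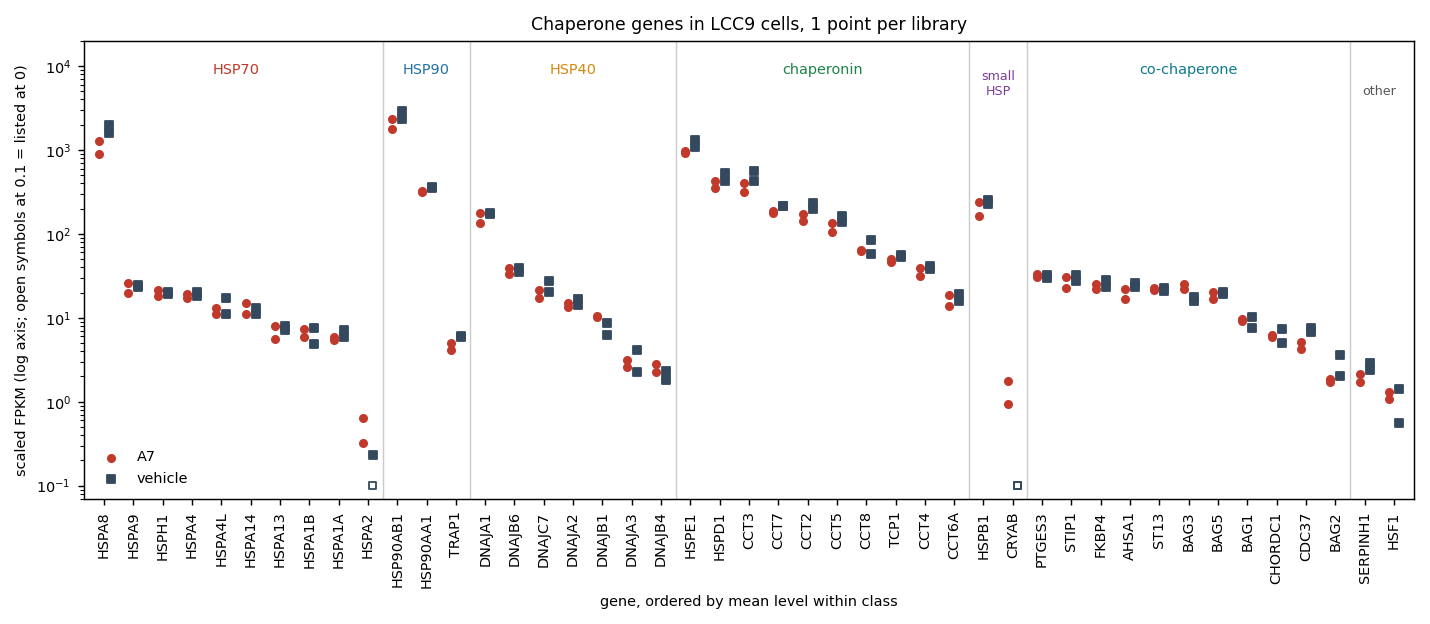
Scaled FPKM (log axis) of the 45 chaperone genes above 0 in any library, with A7 libraries as circles and vehicle libraries as squares, 1 point per library, grouped by class. HSPA8, HSP90AB1 and HSPE1 stand above the rest, and the open squares of CRYAB and HSPA2 mark libraries where the gene was listed at 0.

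The comparison asks how the chaperone system of these cells stood after 24 h of the compound. Of the 46 genes 43 reached the mean FPKM of 1 needed for the test, and HSPA2, HSPA6 and CRYAB did not. No chaperone gene passed at a limma adjusted p under 0.05 over the 8952 genes tested, where 0.0112% passed in each direction. At an unadjusted p under 0.05, 4 genes were lower with A7 (HSPA8, HSPE1, CCT2 and CDC37) and 1 was higher (BAG3), out of 43. The shares over all tested genes were 3.55% lower and 2.21% higher. With a library left out, 1 gene was lower without A7 replicate 1 or without vehicle replicate 2. None was higher without A7 replicate 1, A7 replicate 2 or vehicle replicate 2, whereas 2 were higher without vehicle replicate 1. Such fits have fewer degrees of freedom, and the lone sample is assumed to vary like the other group, so a lower count does not by itself show dependence on that library. The smallest limma adjusted p of any of the 43 was 0.806, so none of the differences below is shown at this replication. An exact permutation test of 2 against 2 libraries cannot give a p below 0.333 and was not used.

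Beneath the threshold the values leaned to one side. Means were lower with A7 in 34 of the 43 genes and higher in 9, while 50.3% of all tested genes were lower. The median log2 difference, on log2(scaled FPKM + 1) and A7 minus vehicle throughout, was -0.16, against -0.0019 for all tested genes. The groups did not overlap in 14 genes with lower values in both A7 libraries, 32.6% of the 43, where 18.6% of all genes did so, and in 2 genes with higher values, DNAJB1 and BAG3, where 18.3% of all genes did so. Abundant genes of every kind had mostly lower values with A7. All 11 chaperone genes averaging 100 FPKM or more were lower (median -0.32, and 9 of 11 on the TPM scale described next), and so were 83.5% of the 717 genes at such levels (median -0.16). In 8 of the 11 A7 was lower without overlap, against 48.5% of those 717 genes. HSPA8, HSP90AB1 and HSPE1 were lower without overlap, as were 59.8% of the 169 genes averaging at least 1000 FPKM (90.5% lower in all). Among the 32 below 100 FPKM, 23 were lower (median -0.090), against 47.4% of all genes at such levels (median 0.015). This lean of the 32 depended on the scale. On the TPM scale 15 of all 43 were lower, 9 of them among the 11 abundant genes, against 21.7% of all tested genes. Of the 32, 6 were lower without overlap, against 16.0%.

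**Figure D2:**
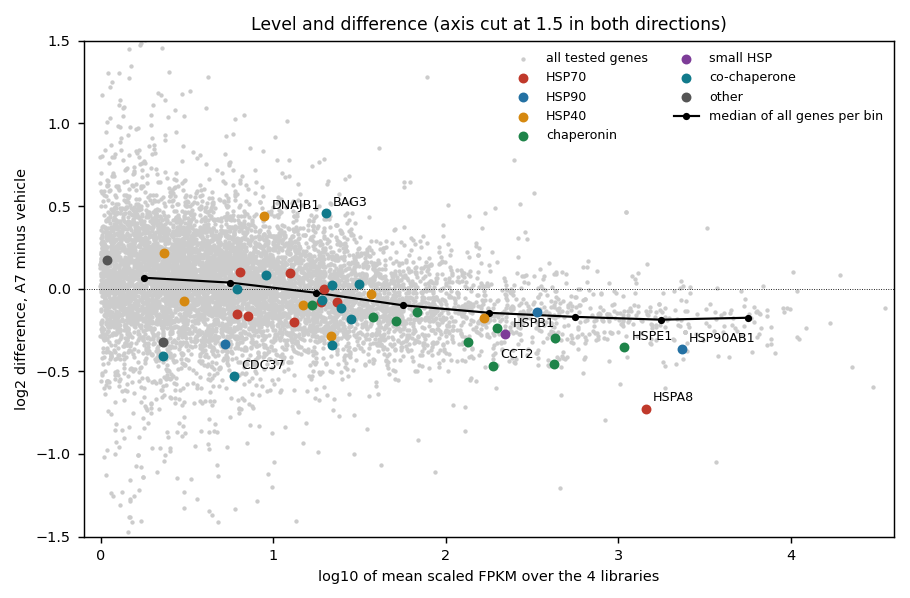
Difference between A7 and vehicle on log2(scaled FPKM + 1) against the log10 of the mean level, for all 8952 tested genes (grey), the chaperone genes by class (colours) and the median of all genes per bin of level (black line). The black line falls below 0 at high levels, HSPA8 lies at -0.73 below it, and DNAJB1 (0.44) and BAG3 (0.46) lie above it.

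The scale on which libraries are set side by side decides the sign of the median. With FPKM rescaled to TPM the median of all tested genes moved to 0.17 and that of the chaperone genes to 0.049, with 15 of 43 lower than 0, against 21.7% of all tested genes on that scale, a share to which all TPM counts below compare. Relative to the median of all genes on that scale, 31 of 43 were lower, against 33 of 43 on the main scale. On the TPM scale HSPA8 stood at -0.50 (-0.68 relative to the median of all genes), CDC37 at -0.33 (-0.50), BAG3 at 0.66 (0.49) and DNAJB1 at 0.62 (0.45), so these 4 had the same sign unscaled, on the TPM scale and after quantile normalization.

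HSPA8, which folds new chains and uncoats clathrin vesicles, had the largest difference of the HSP70 class and of all 43 genes. Its values were 905 and 1283 scaled FPKM in the A7 libraries and 1609.7 and 1976 in the vehicle libraries. Both A7 libraries lay below both vehicle libraries, and the replicates lay well apart in either group. The mean was 1.64-fold lower with A7, with a log2 difference of -0.73 (SE 0.20, 95% interval -1.22 to -0.23, limma unadjusted p = 0.0118, adjusted p = 0.806). Without A7 replicate 1, which had the most DCN and the most estimated fragments, the difference was -0.47, and without A7 replicate 2 it was -0.98. The size of the difference thus depends on which A7 library is kept, and the part of DCN or of depth was not tested. HSPA8 was estimated to rest on 8744 to 10857 fragments per library.

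The stress-induced HSP70 genes were expressed at low levels with overlapping groups. HSPA1A stood at 5.50 and 5.96 scaled FPKM with A7 and at 7.21 and 5.85 with vehicle, and HSPA1B at 5.83 and 7.38 with A7 and at 7.47 and 4.87 with vehicle. The groups overlapped for both genes, with log2 differences of -0.16 (SE 0.18) and 0.10 (SE 0.24). Their transcripts are 98.6% identical over 2152 aligned bases, so the split of reads between them depends on how the authors assigned reads, and their sum is the firmer value. It was 11.3 and 13.3 with A7 and 14.7 and 10.7 with vehicle, with vehicle libraries at both ends of the range. FPKM of HSPA8 were 79.8 and 96.2 times that sum in the A7 libraries, and 109.6 and 184 times in the vehicle libraries. HSPA6 was listed at 0 throughout, and HSPA2, a relative best known from the testis, at 0.643 and 0.321 with A7 and at 0.234 and 0 with vehicle, too low to test.

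The remaining HSP70 genes had overlapping groups. HSPH1, the HSP110 exchange factor that heat also induces, stood at 21.2 and 18.0 with A7 and at 20.2 and 19.1 with vehicle (log2 difference -0.0038, SE 0.16, 95% interval -0.39 to 0.38). HSPA9, the mitochondrial HSP70 known as mortalin, stood at 25.7 and 19.7 with A7 and at 24.5 and 23.4 with vehicle, and the vehicle values lay within the A7 range. HSPA4 and HSPA4L, of the HSP110 family, the ribosome-associated HSPA14 and the microsomal HSPA13 had log2 differences between -0.20 and 0.10 (SE 0.15 to 0.24). Over the 9 tested HSP70 genes 7 were lower and 2 higher, with a median of -0.083, and only HSPA8 had no overlap. On the TPM scale 1 of the 9, HSPA8, was lower, with a median of 0.13.

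All 3 HSP90 genes were lower in both A7 libraries, 2 of 3 on the TPM scale, and none had an unadjusted p under 0.05. Of all tested genes 18.6% were lower without overlap. The share was 48.5% at 100 FPKM or more, where HSP90AB1 and HSP90AA1 lie. HSP90AB1 stood at 1769 and 2325 scaled FPKM with A7 and at 2359.5 and 2898 with vehicle. The higher A7 library and the lower vehicle library were close together (log2 difference -0.37, SE 0.18, limma unadjusted p = 0.0894), and without A7 replicate 1 the difference was -0.17. HSP90AA1, the inducible cytosolic form, stood at 319.7 and 323 with A7 and at 359 and 351 with vehicle, a tight pair in either group and a difference of -0.14 (SE 0.11), which became 0.081 on the TPM scale. TRAP1, the mitochondrial HSP90, stood at 4.95 and 4.11 with A7 and at 6.06 and 5.84 with vehicle, 1.31-fold lower (-0.33, SE 0.18, limma unadjusted p = 0.109). HSP90AB1 exceeded HSP90AA1 by a factor of 5.53 and 7.21 in the A7 libraries and of 6.57 and 8.26 in the vehicle libraries, with overlap. HSP90AA1 and HSP90AB1 each have 1 pseudogene copy of at least 95% identity over 50% of the transcript.

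**Figure D3:**
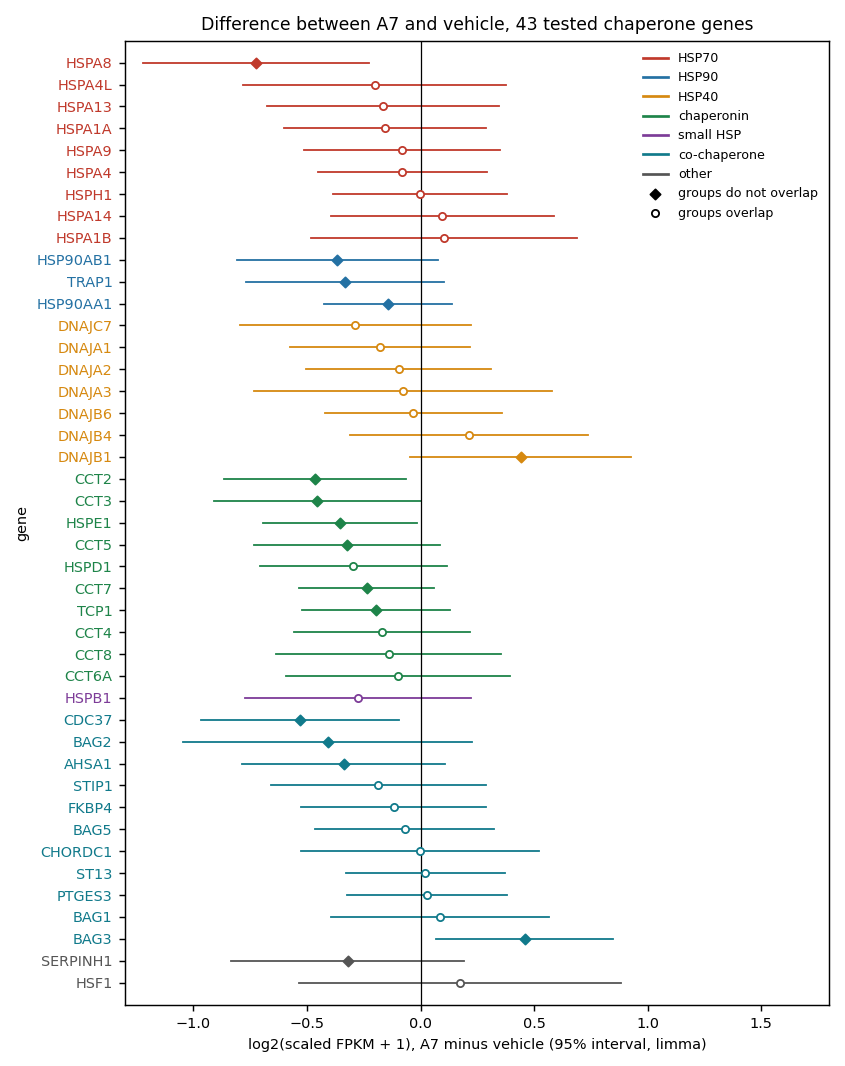
Log2 difference between A7 and vehicle with its 95% interval (limma) for the 43 tested chaperone genes, by class, filled diamonds marking genes whose groups did not overlap. The intervals of HSPA8, HSPE1, CCT2 and CDC37 lie below 0 and that of BAG3 above 0, before any adjustment for the number of genes tested.

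Among the HSP40 genes DNAJB1 stood apart from the abundant members. DNAJB1, the heat-induced partner of HSPA1A and HSPA8, had 10.5 and 10.1 scaled FPKM with A7 and 8.68 and 6.21 with vehicle. Both A7 libraries were above both vehicle libraries, and the vehicle libraries differed more between themselves than the A7 libraries did. The mean was 1.39-fold higher, a log2 difference of 0.44 (SE 0.20, 95% interval -0.05 to 0.93, limma unadjusted p = 0.0684), and without vehicle replicate 2 it was 0.23. DNAJB1 was estimated at 99 and 72 fragments in the A7 libraries and 43 and 31 in the vehicle libraries.

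DNAJA1, the most abundant HSP40, a type I protein with a zinc finger, stood at 135 and 177 with A7 and at 173 and 177 with vehicle, and only A7 replicate 1 lay apart (log2 difference -0.18, SE 0.16, and 0.012 without A7 replicate 1). DNAJB6, which holds back amyloid aggregation, stood at 33.2 and 39.5 with A7 and at 39.5 and 34.7 with vehicle, with full overlap. DNAJC7, which carries TPR repeats and binds both HSP70 and HSP90, stood at 21.4 and 17.0 with A7 and at 20.2 and 27.4 with vehicle (-0.29, SE 0.21). DNAJA2, DNAJA3, the mitochondrial J protein, and DNAJB4 had differences of -0.097, -0.076 and 0.21 with overlapping groups. Of the 7 HSP40 genes 5 were lower and 2 higher (median -0.076), and the median was 0.11 on the TPM scale and 0.061 without vehicle replicate 1.

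All 10 chaperonin genes had lower means with A7, 6 of 10 on the TPM scale, with a median log2 difference of -0.27, and in 6 of them the groups did not overlap. Over all tested genes 50.3% were lower and 18.6% lower without overlap, but at 100 FPKM or more, where 5 of these 6 lie, the shares were 83.5% and 48.5%. HSPE1 stood at 962 and 928 scaled FPKM with A7 and at 1096 and 1330.0 with vehicle, 1.28-fold lower (log2 difference -0.35, SE 0.14, 95% interval -0.69 to -0.02, limma unadjusted p = 0.0431, adjusted p = 0.806). The A7 libraries were close to each other and both lay below vehicle, whose libraries were farther apart. HSPD1, whose barrel HSPE1 closes and with which it shares its promoter, stood at 348 and 425 with A7 and at 425 and 526 with vehicle, so that the upper A7 and the lower vehicle library nearly coincided (-0.30, SE 0.17). Without vehicle replicate 2 the difference of HSPE1 was -0.21. HSPE1 was 2.77 and 2.18 times HSPD1 in the A7 libraries and 2.58 and 2.53 times in the vehicle libraries. The read-through transcript HSPE1-MOB4 was near 0 in every library. HSPD1 has 2 pseudogene copies of at least 95% identity.

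The 8 TRiC/CCT subunits, which fold actin, tubulin and WD40 proteins as a complex with 1 copy of each subunit per ring, were not equal in RNA. CCT3 was the highest and CCT6A the lowest, and the highest exceeded the lowest by a factor of 16.9 and 28.9 in the A7 libraries and of 27.4 and 29.0 in the vehicle libraries. CCT2 stood at 141 and 173 with A7 and at 197 and 235 with vehicle, 1.38-fold lower, with a log2 difference of -0.47 (SE 0.16, 95% interval -0.86 to -0.07, limma unadjusted p = 0.0292, adjusted p = 0.806). CCT3 stood at 316 and 402 with A7 and at 429 and 556 with vehicle (-0.45, SE 0.19, limma unadjusted p = 0.0508, adjusted p = 0.806). In both genes the A7 libraries lay below the vehicle libraries, and replicate 2 was the higher one of either group.

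The other subunits followed with smaller differences. CCT5 (107 and 133 with A7, 137 and 163 with vehicle), CCT7 (175 and 189 with A7, 212 and 216 with vehicle) and TCP1, the alpha subunit (46.2 and 49.5 with A7, 53.3 and 56.6 with vehicle), had no overlap. Their log2 differences were -0.32, -0.24 and -0.19. CCT4, CCT6A and CCT8 overlapped, at -0.17, -0.099 and -0.14, the 3 smallest differences of the complex. The 8 subunits summed to 907 and 1054 scaled FPKM with A7 and to 1145 and 1370 with vehicle. On the TPM scale the chaperonin median was -0.043. On the main scale it was -0.43 without vehicle replicate 1 and -0.21 without vehicle replicate 2. Without A7 replicate 1 it was -0.23, and without A7 replicate 2 -0.31.

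**Figure D4:**
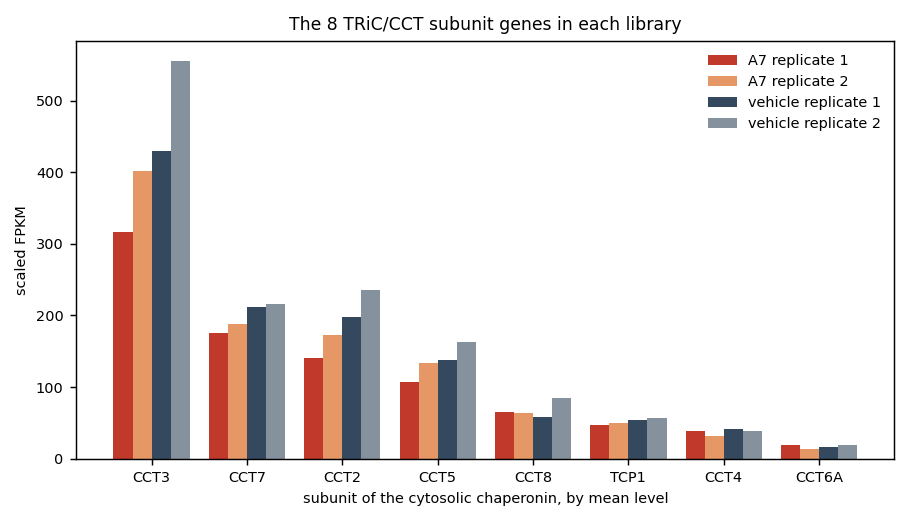
Scaled FPKM (linear axis from 0) of the 8 TRiC/CCT subunit genes in each library, A7 replicates in red and orange and vehicle replicates in dark and light grey. CCT3, CCT7, CCT2, CCT5 and TCP1 have both A7 bars below both vehicle bars, and CCT8, CCT4 and CCT6A do not.

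Library by library, the chaperonin genes also differed between the vehicle replicates. Around the mean of the 4 libraries, their median deviation was -0.16 and -0.075 in the A7 libraries and 0.040 and 0.29 in the vehicle libraries. The HSP90 genes had -0.078 and -0.065 with A7 and 0.088 and 0.14 with vehicle, and the HSP70 genes -0.13 and -0.029 with A7 and 0.041 and 0.066 with vehicle. In these 3 classes the A7 libraries lay below the vehicle libraries on the main scale. On the TPM scale the median differences were 0.13 for the HSP70 genes, -0.14 for the 3 HSP90 genes and -0.043 for the chaperonin genes. The HSP40 genes, at -0.0092 and 0.10 with A7 and 0.074 and -0.068 with vehicle, and the co-chaperones, at -0.0013 and -0.032 with A7 and 0.051 and -0.058 with vehicle, overlapped.

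**Figure D5:**
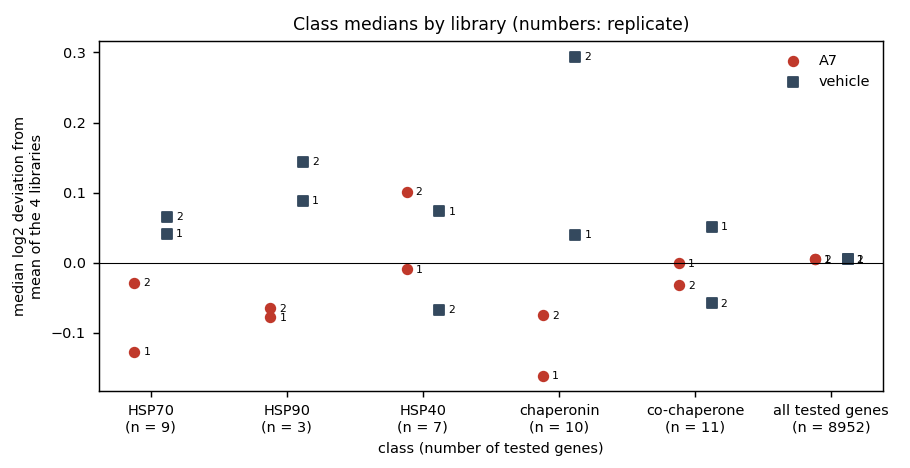
Median log2 deviation of each class from the mean of the 4 libraries, on the main scale. A7 libraries are circles and vehicle libraries squares, with the replicate number beside each point. In HSP70, HSP90 and chaperonin genes both circles lie below both squares, and in HSP40 genes and co-chaperones they overlap.

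The small heat shock proteins hold unfolded chains without ATP. HSPB1, known as HSP27 and induced by estrogen in breast cells, stood at 239.5 and 164 scaled FPKM with A7 and at 256 and 226 with vehicle. A7 replicate 1 lay between the vehicle libraries and only A7 replicate 2 below them (log2 difference -0.27, SE 0.20, limma unadjusted p = 0.224). CRYAB, alpha B-crystallin, was listed at 0.944 and 1.79 with A7 and at 0 in both vehicle libraries, about 4 and 6 estimated fragments, too few to test.

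Among the co-chaperones CDC37 had the lowest and BAG3 the highest log2 difference, although the ratio of means was slightly lower for BAG2 (1.55-fold lower). CDC37, which loads kinases onto HSP90, stood at 5.09 and 4.28 scaled FPKM with A7 and at 6.77 and 7.64 with vehicle. Both A7 libraries lay below both vehicle libraries, 1.54-fold lower on average, with a log2 difference of -0.53 (SE 0.18, 95% interval -0.97 to -0.09, limma unadjusted p = 0.0252). It was estimated at 34 and 22 fragments in the A7 libraries and at 24 and 27 in the vehicle libraries. BAG3, an HSP70 exchange factor that leads clients to autophagy and is an HSF1 target, stood at 25.1 and 21.8 with A7 and at 17.9 and 15.7 with vehicle. Both A7 libraries lay above both vehicle libraries, 1.40-fold higher, with a log2 difference of 0.46 (SE 0.16, 95% interval 0.07 to 0.85, limma unadjusted p = 0.0281, adjusted p = 0.806). Leaving out single libraries gave 0.36 to 0.56.

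The other HSP90 co-chaperones were close to vehicle or slightly below it. AHSA1, which speeds the HSP90 ATPase, stood at 21.9 and 16.7 with A7 and at 26.0 and 23.0 with vehicle (log2 difference -0.34, SE 0.18, no overlap). STIP1, the adaptor that joins HSP70 to HSP90, stood at 22.7 and 30.3 with A7 and at 27.4 and 32.7 with vehicle (-0.19, SE 0.19). PTGES3, known as p23 and part of the mature steroid receptor complex, stood at 33.1 and 30.4 with A7 and at 32.6 and 29.7 with vehicle (0.028, SE 0.14, 95% interval -0.32 to 0.38). FKBP4, the immunophilin of the same complex, and CHORDC1 had differences of -0.12 and -0.0013 with overlap. Of the HSP70 co-chaperones, BAG2, an inhibitor of the ubiquitin ligase CHIP, stood at 1.85 and 1.74 with A7 and at 3.57 and 2.02 with vehicle, without overlap but with vehicle libraries far apart. BAG1, BAG5 and ST13, known as HIP, had differences of 0.084, -0.070 and 0.021 with overlap. Of the 11 co-chaperones 7 were lower and 4 higher (median -0.070), and on the TPM scale 3 were lower (median 0.14).

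HSF1 itself was close to the lower limit of the test, at 1.09 and 1.29 scaled FPKM with A7 and at 1.41 and 0.559 with vehicle. Vehicle libraries stood at both ends, and the log2 difference of 0.17 (SE 0.29) became -0.14 without vehicle replicate 2. SERPINH1, the collagen chaperone HSP47, stood at 1.72 and 2.15 with A7 and at 2.91 and 2.41 with vehicle (-0.32, SE 0.21, no overlap, limma unadjusted p = 0.175). The 7 heat-induced genes followed by name were HSPA1A, HSPA1B, HSPA6, HSPH1, HSPB1, DNAJB1 and BAG3. The last pair was higher in both A7 libraries, HSPA6 was listed at 0, and the other 4 overlapped. For comparison, 18.3% of all tested genes were higher without overlap. HSP90AA1, the inducible HSP90, was not among the 7. It was lower without overlap (-0.14), as were 48.5% of genes at 100 FPKM or more, and stood at 0.081 on the TPM scale. By promoter letters, 17 of 20 tested genes with a match to GAANNTTC or TTCNNGAA had lower means with A7 (median -0.18) and 15 of 18 without a match did (median -0.15). On the TPM scale 7 of the 20 and 8 of the 18 were lower. The 8 tested genes with a 3-unit match were lower in 8 of 8 cases (median -0.24), and in 4 of 8 on the TPM scale. HSPA8, HSP90AA1, HSP90AB1, DNAJA1 and HSPD1 among them averaged 100 FPKM or more, where 83.5% of all genes were lower. CHORDC1 and DNAJB6 had differences of only -0.0013 and -0.031.

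Other genes of the network were listed beside these from general knowledge, in 6 lists of 76 genes, and none passed at a limma adjusted p under 0.05. HSPB8, a small heat shock protein that works with BAG3 and is known to be induced by estrogen in breast cancer cells, had the smallest p of them. It stood at 16.1 and 15.2 scaled FPKM with A7 and at 26.8 and 23.3 with vehicle, 1.60-fold lower (log2 difference -0.64, SE 0.15, limma unadjusted p = 0.00574, adjusted p = 0.734). The groups were well apart, and the partners BAG3 and HSPB8 thus lay on opposite sides of vehicle. It was the 1 gene of the 57 tested in these lists with an unadjusted p under 0.05, against 3.55% lower and 2.21% higher of all tested genes. HSPB11, placed in the small heat shock protein list by its symbol, was the other tested gene of that list (-0.31, SE 0.19).

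Of 15 tested further co-chaperones 11 were lower and 4 higher, and 6 were lower on the TPM scale. The groups did not overlap in 2 of those lower and in 1 of those higher, where 18.6% and 18.3% of all tested genes did so. CACYBP, which binds the ligase SIAH1, stood at 56.8 and 63.9 with A7 and at 73.1 and 77.3 with vehicle (log2 difference -0.31, SE 0.14, no overlap). The ubiquitin ligase STUB1, known as CHIP, had a difference of -0.37 (SE 0.27) with overlap, which was -0.75 without A7 replicate 1 and -0.00022 without A7 replicate 2.

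Of 13 tested J proteins 10 were higher and 3 lower (median 0.10), and all 13 were higher on the TPM scale (median 0.22). DNAJC19, of the mitochondrial import motor, stood at 16.4 and 14.3 with A7 and at 9.57 and 12.7 with vehicle (0.44, SE 0.19, no overlap). DNAJC28 and the histone chaperone DNAJC9 had differences of 0.54 (SE 0.33) and 0.28 (SE 0.24) with overlap. Omitting A7 replicate 1 gave 0.91 for DNAJC28, and omitting A7 replicate 2 gave 0.17. DNAJC9 had a difference of 0.52 without vehicle replicate 1 and 0.034 without vehicle replicate 2.

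Of 12 prefoldin and chaperonin cofactor genes 8 were lower and 4 higher (median -0.10), but 1 was lower on the TPM scale (median 0.093), with PDRG1 at -0.19, UXT at -0.24 and the abundant prefoldin subunit PFDN5 at -0.16. Of 9 mitochondrial exchange factors and proteases 5 were lower and 4 higher (median -0.024), and 1 was lower on the TPM scale. GRPEL1, the exchange factor of HSPA9, stood at 83.6 and 88.8 with A7 and at 98.8 and 94.3 with vehicle (-0.16, SE 0.13), and its paralog GRPEL2 and the protease YME1L1 had differences of -0.16 each. Of 6 tested heat shock factors and response genes 3 were lower and 3 higher, and none was lower on the TPM scale, with the polyubiquitin gene UBB at -0.21, the HSF1-binding HSBP1 at -0.17 and IER5, an HSF1 target, at 0.18.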

How the data were processed

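Per the labels' protocols, cDNA was generated with a SMARTer PCR kit, fragmented, ligated to adapters and amplified, and no step is named that would mark the strand. The authors deposited 1 table per library of gene symbols and FPKM, per the file headers. The submitters' processing notes name CASAVA 1.8.2, TopHat, Cufflinks 2.2.1 and GRCh37 without saying what each was used for. The annotation and the treatment of multiply mapping reads are not stated.

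Of 23619 lines, 14 with a number for a symbol were dropped. Libraries were scaled by the median of their ratios to the geometric mean over libraries. FPKM are not counts, so the 8952 genes with a mean of at least 1 FPKM were fitted with limma 3.58.1 in R 4.3.3 (two-sided, mean-variance trend) on log2(scaled FPKM + 1), which understates differences of low genes. P-values were Benjamini-Hochberg adjusted over those genes, with a threshold of 0.05. The script was tested on simulated data. Alternatives were other filters, pseudocounts, scalings and variance models, a replicate block, and each library left out.

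The 46 genes and the lists were chosen with earlier results of these data known. Described in full are genes with an unadjusted p under 0.05, the 2 most abundant and the 2 of smallest p per class, heat-induced genes, HSF1, and up to 3 of smallest p per further list, of which 1 is not reported here. Fragments were estimated from the FPKM worth of 1 fragment and the longest coding transcript of GENCODE 29, and are rough. Copies were sought with blastn 2.17.0 in GENCODE 29 (at least 95% identity over at least 50% of the transcript), and 7 of 46 genes had one.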

Additional observations from a re-analysis of the deposited data

How the results depend on the processing

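The count of chaperone genes at a limma adjusted p under 0.05 was 0 under every alternative run. Over all genes it was 2, and 0 with no filter on low values, 4 with a mean FPKM of at least 5, 1 with a pseudocount of 0.1 or 0.01, 1 without the mean-variance trend, and 7 to 11 with a library left out. At an unadjusted p under 0.05, chaperone genes higher with A7 numbered 1, and 2 with no filter or on the TPM scale, and 0 to 2 with a library left out. Those lower numbered 4, and 1 on the TPM scale, 2 after quantile normalization or without the trend, and 1 to 5 with a library left out. The 34 genes with a lower mean became 15 on the TPM scale. The median of -0.16 became 0.049 on the TPM scale and -0.078 after quantile normalization, and lay between -0.18 and -0.15 with a library left out. The cause was not tested.

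With the replicate number as a block, all genes past the adjusted threshold numbered 0, and chaperone genes at an unadjusted p under 0.05 numbered 10 lower and 2 higher. Deviations of same-numbered libraries correlated at 0.091 across the tested genes. Such a correlation cannot show whether same-numbered libraries shared a culture or a batch, which was not tested. The replicate block is given here alone.

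Of 39 tested genes that the naming rule chose, 22 had 1 sign throughout and 17 did not, none of them called. On the TPM scale the log2 difference became 0.034 for HSPA1A, 0.13 for HSPA9, 0.21 for HSPH1, 0.081 for HSP90AA1, 0.045 for DNAJA1, 0.19 for DNAJB6 and 0.031 for STIP1. It also became 0.036 for PDRG1, 0.069 for PFDN5, 0.061 for GRPEL1, 0.052 for YME1L1, 0.037 for GRPEL2, 0.019 for UBB and 0.055 for HSBP1. After quantile normalization it became 0.032 for HSPH1, 0.031 for DNAJB6, 0.056 for PFDN5 and 0.0031 for HSBP1. With a library left out it spanned -0.16 to 0.37 for HSPA1B, -0.27 to 0.10 for HSPA9, -0.12 to 0.11 for HSPH1, -0.37 to 0.012 for DNAJA1 and -0.15 to 0.091 for DNAJB6. It spanned -0.39 to 0.016 for STIP1, -0.038 to 0.093 for PTGES3, -0.14 to 0.49 for HSF1 and -0.34 to 0.014 for GRPEL2. Depth limits genes near the FPKM minimum most, HSF1 resting on 29 estimated fragments in all.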
